A study of Yarrowia lipolytica with 4 samples.

Results

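Mitochondrial carriers are membrane proteins, encoded in the nucleus, that move small molecules across the mitochondrial inner membrane, most often by exchanging one solute for another. The ADP/ATP carrier lets ATP out in return for ADP, the phosphate carrier brings in the phosphate that ATP synthase needs, and other members handle carboxylates, amino acids, nucleotides and cofactors. In oleaginous yeasts such as Yarrowia lipolytica, citrate that leaves mitochondria through a carrier is a source of cytosolic acetyl-CoA for lipid synthesis. The genes described here are those whose description in the deposited annotation holds both "mitochondrial" and "carrier" and whose pathway entry does not hold oxidative phosphorylation. That rule found 39 of 6797 genes, and 0 carrier genes were left out by the pathway condition.

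The data are 4 RNA sequencing libraries, 2 for F19 and 2 for WLH, the control, both strains being in the PO1f background, which is auxotrophic for leucine and uracil. F19 came out of work on a genome-wide CRISPR interference library, where single genes are repressed through guide RNAs and an inactive Cas9, aimed at tolerance of furfural and acetic acid. Both strains grew with 2.4 mM furfural, an aldehyde released from plant biomass, in medium lacking leucine at 30 °C for 48 h, so furfural is shared by the groups and no library without it was analysed here. Which gene F19 represses is not stated in the labels, and the repression was therefore not checked. Nor is it stated that replicate libraries are from different cultures: p-values reflect the spread among these libraries alone, which may be technical. In bulk RNA, fewer cells with a transcript and less of it per cell cannot be told apart. Gene totals were between 18244313 and 24129664 counts per library.

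The label mitochondrial carrier was checked against the other annotation. Of the 39 genes, 37 are described only as mitochondrial carrier domain-containing proteins, 29 have an ortholog (KO) number, and all 23 with a molecular function term also have a cellular component term naming the mitochondrion or its inner membrane. A substrate could be named for 30 genes from these fields, and 9 were left without one. Where only an ortholog number was given, the substrate was named from general knowledge of that number. One gene outside the rule, BKA90DRAFT_135723, is described as solute carrier family 25 member 38, a glycine carrier of the same family. Its RPKM, counts per kilobase of exon after TMM scaling of library sizes, were 9.64 and 10.2 in F19 against 14.7 and 15.1 in WLH (log2 fold change -0.59 ± 0.17, SE; adjusted p = 0.0241, edgeR). BKA90DRAFT_134554 has the ortholog number of a peroxisomal carrier of adenine nucleotides and an entry in the peroxisome pathway, so its description as mitochondrial is not borne out by those fields.

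The carriers lay on 29 scaffolds, 21 on the plus and 18 on the minus strand, and 30 had no intron by their coordinates. Their median exonic length was 1159 bases, against 1377 bases for all genes. The closest carriers were BKA90DRAFT_134554 and BKA90DRAFT_134556 on scaffold ML755984.1, with 1835 bases and 1 gene between them. All 39 carriers passed the filter on low counts, and the lowest count of a carrier in any library was 30.

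Carrier levels spanned a wide range. Mean RPKM over the libraries ran from 6.82 for BKA90DRAFT_132366, a gene with the ortholog number of the carnitine carrier family, to 1447 for the ADP/ATP carrier BKA90DRAFT_62384, with a median of 71.3. At 500 RPKM or more stood 7 annotated genes: 4 short ADP/ATP carrier models, both phosphate carriers and the succinate/fumarate carrier. In the authors' FPKM the median carrier stood at 72.6 and the median of all genes tested at 37.3. Counts of all carriers together made up 0.666% and 0.759% of gene counts in F19 and 0.791% and 0.783% in WLH.

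**Figure D1:**
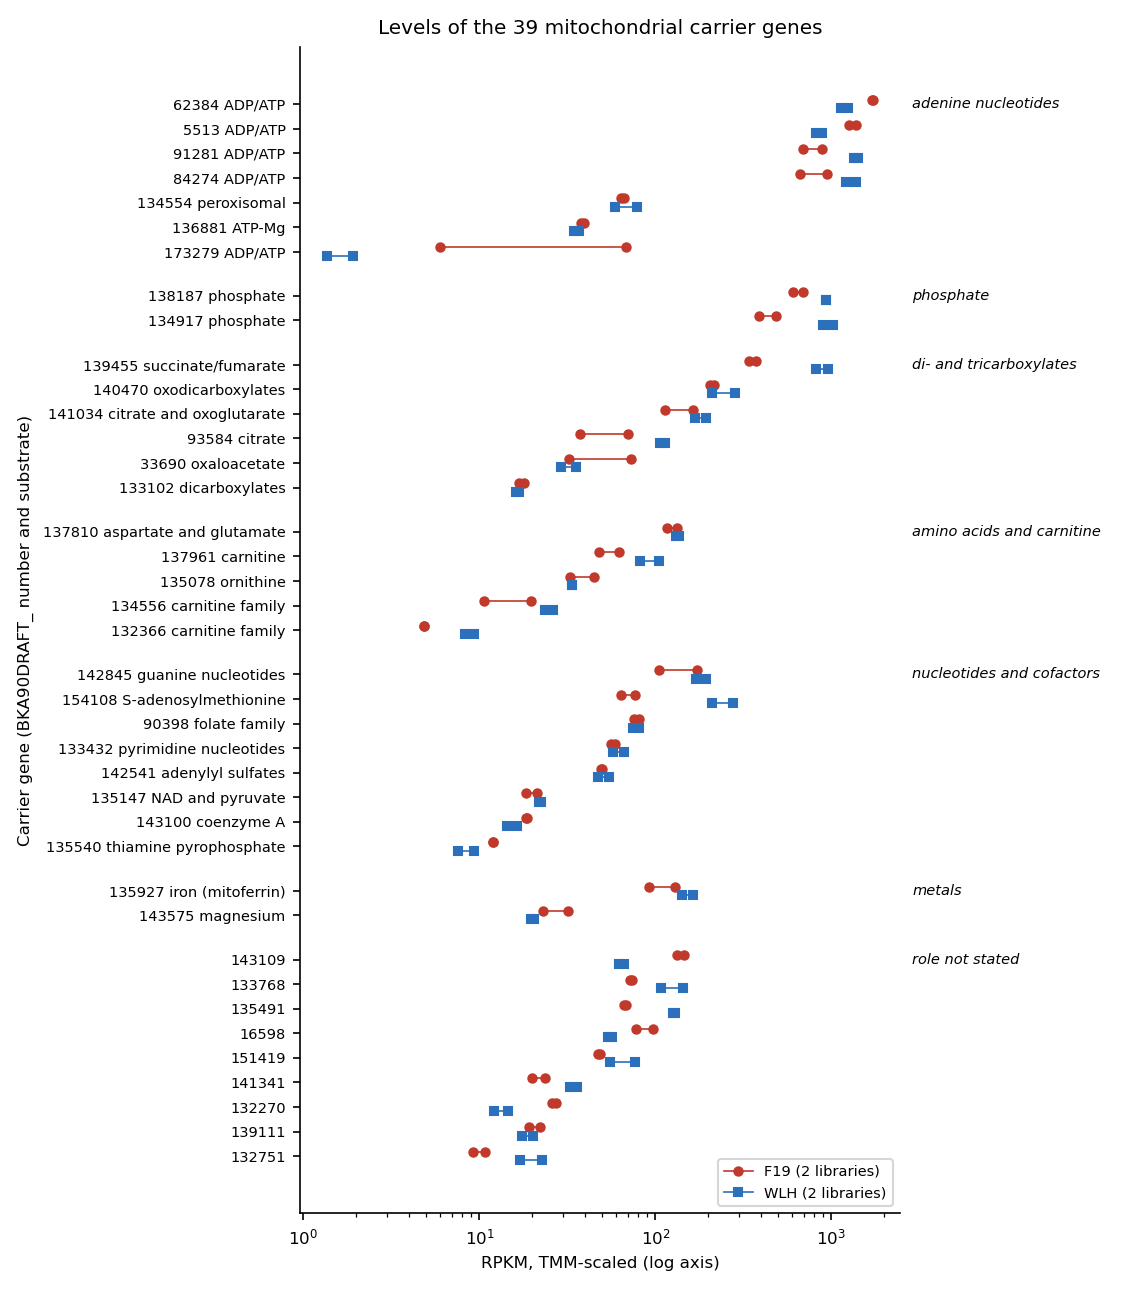
RPKM after TMM scaling (horizontal log axis) of the 39 carrier genes, ordered within groups of substrates, with circles for the 2 F19 libraries and squares for the 2 WLH libraries, joined by a line within a strain. Phosphate carriers lie further left in F19 than in WLH, and the F19 libraries of BKA90DRAFT_173279 lie far apart, at 5.94 and 67.9 RPKM.

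The comparison of F19 with WLH asks how transcript levels of a strain from the tolerance work stand against the control strain under furfural. Carriers moved in both directions. The S-adenosylmethionine and succinate/fumarate carriers, both phosphate carriers and 1 of the 2 carriers annotated with mitochondrial citrate transport fell in F19. The ADP/ATP carrier models split, 3 higher and 2 lower, and whether the short ones are parts of longer genes was not tested. Of the 39 carriers, 6 rose and 13 fell (threshold 0.05 on the Benjamini-Hochberg adjusted p of edgeR's quasi-likelihood test), and 20 did not pass. Of all 6414 genes tested, 25.9% rose and 25.5% fell, 51.4% in all, against 15.4% and 33.3% of the carriers, 48.7% in all. The share of carriers called was thus near that of all genes, with more falls than rises among the carriers. At least 2-fold, 2 carriers rose and 4 fell, beside 10.4% and 9.18% of all genes. The median log2 fold change was -0.15 over the carriers and 0.01 over all genes.

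These counts depend on the scaling and on which libraries are kept. With library totals in place of TMM factors, 10 carriers rose and 11 fell, and their median was 0.08 where the median of all genes was 0.24, so it stayed below that of all genes. Under that scaling 2419 of all genes rose and 1066 fell. Omitting either WLH library left fewer calls among the carriers and also among all genes, the lone WLH library being taken to vary like those of F19. A call lost in this way can thus reflect the smaller number of libraries, and was not read as a change in the carrier. The carrier median was -0.14 on omitting WLH replicate 1 and -0.27 on omitting WLH replicate 2. The medians of all genes were then 0.005 and 0.003. How many of all genes kept their call under every alternative was not counted, so no share stands beside the carriers that did. The same 7 carriers were called in the same direction under every alternative run, namely BKA90DRAFT_154108, BKA90DRAFT_139455, BKA90DRAFT_134917, BKA90DRAFT_135491 and BKA90DRAFT_133768, which fell, and BKA90DRAFT_143109 and BKA90DRAFT_132270, which rose.

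**Figure D2:**
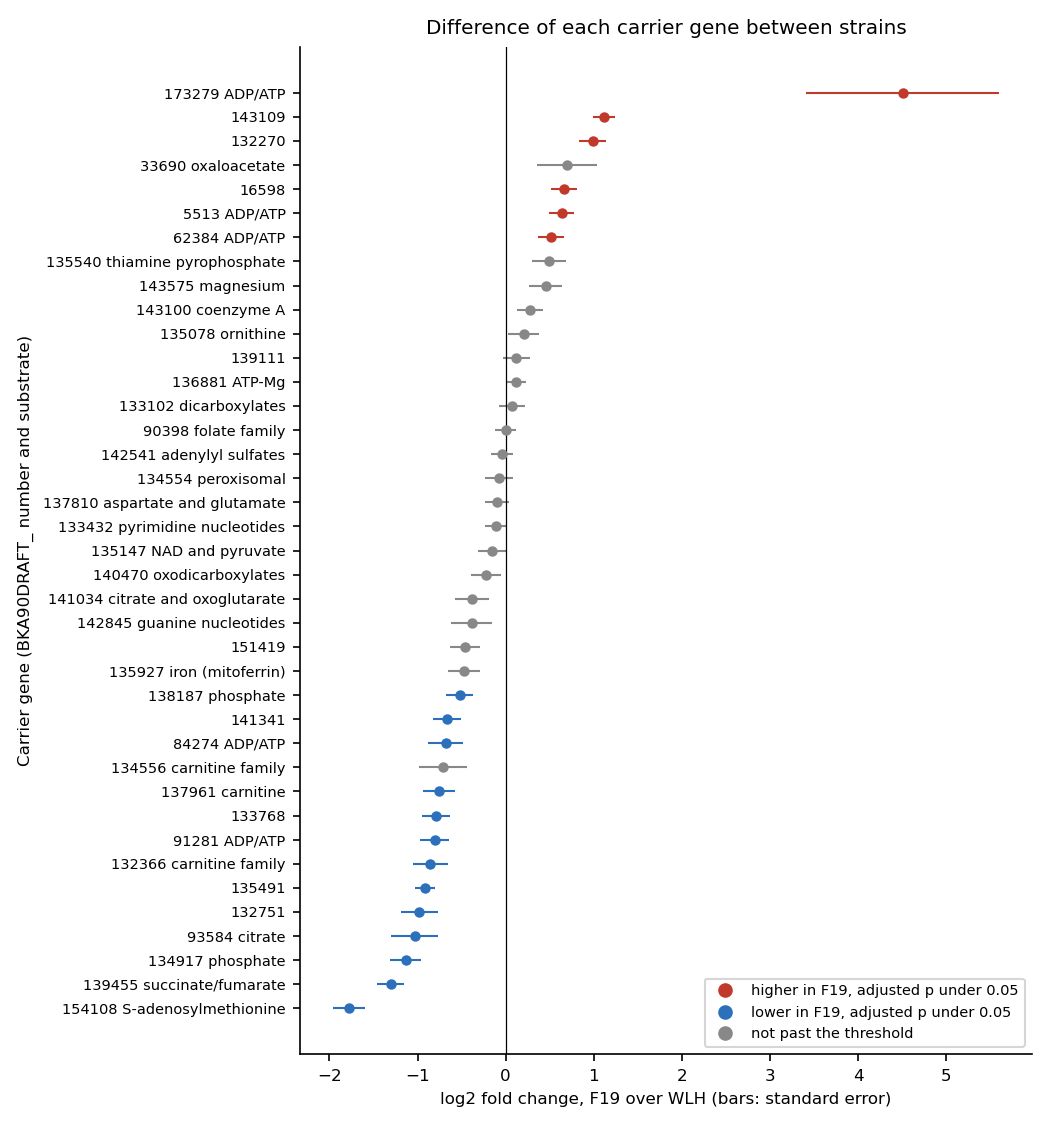
Log2 fold change of each carrier gene, F19 over WLH, with its standard error from edgeR, ordered from the highest to the lowest. Coloured points mark the 6 genes that rose and the 13 that fell, and grey points the 20 that did not pass.

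Adenine nucleotide carriers came first in level. The file gives 5 genes the ortholog number and the term of ATP:ADP antiporters. Only BKA90DRAFT_173279 (scaffold ML755989.1, 252799 to 254021, plus strand) has a length usual for the family, 991 exonic bases. The other 4 are short models, each the first or last annotated gene of its scaffold. BKA90DRAFT_84274 has 426 bases and starts at base 1 of ML756007.1, BKA90DRAFT_91281 has 534 bases and starts at base 2 of ML756110.1, and BKA90DRAFT_62384 has 585 bases and starts at base 3 of ML756066.1. BKA90DRAFT_5513 has 496 bases and ends at base 37608 of ML756093.1, the last annotated base there, which need not be the end of the scaffold. BKA90DRAFT_84274 is on the plus strand, and BKA90DRAFT_91281, BKA90DRAFT_62384 and BKA90DRAFT_5513 are on the minus strand. By direction of transcription, BKA90DRAFT_62384 and BKA90DRAFT_91281 thus have their downstream ends at the edge of the annotated scaffold. BKA90DRAFT_84274 and BKA90DRAFT_5513 have their upstream ends there. Whether these models are parts of longer genes was not tested, so they may stand for fewer than 4 genes. Reads shared by near-identical copies cannot be told apart in these counts, so the levels of these models are less certain than those of other carriers.

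BKA90DRAFT_62384 had 1717 and 1691 RPKM in F19 against 1243 and 1139 in WLH. BKA90DRAFT_5513 had 1264 and 1383 RPKM in F19 against 886 and 816 in WLH. Both stood higher in each F19 library than in either WLH library, with log2 fold changes of 0.52 ± 0.15 and 0.64 ± 0.14 (SE; edgeR adjusted p = 0.0230 and 0.00965). BKA90DRAFT_91281 had 691 and 887 RPKM in F19 against 1342 and 1418 in WLH. BKA90DRAFT_84274 had 665 and 949.7 RPKM in F19 against 1207 and 1384 in WLH. These genes stood lower in each F19 library, with log2 fold changes of -0.81 ± 0.17 and -0.68 ± 0.20 (SE; edgeR adjusted p = 0.00721 and 0.0253). All 4 calls were lost when a WLH library was left out. Without WLH replicate 1 the adjusted p was 0.109 for BKA90DRAFT_62384, 0.0664 for BKA90DRAFT_5513, 0.0518 for BKA90DRAFT_91281 and 0.0850 for BKA90DRAFT_84274. Without WLH replicate 2 it was 0.189, 0.105, 0.0698 and 0.164 in the same order. The fall of BKA90DRAFT_84274 was also not called with library totals (adjusted p = 0.0873), nor in limma on log2(FPKM + 1) (adjusted p = 0.0893).

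Ratios between genes of one library do not depend on the scaling, and the following were chosen after the values were seen. The summed RPKM of BKA90DRAFT_62384 and BKA90DRAFT_5513 was 2.20 and 1.67 times that of BKA90DRAFT_84274 and BKA90DRAFT_91281 in F19, against 0.835 and 0.698 times in WLH. Within each pair the ratio moved little. BKA90DRAFT_62384 stood at 1.36 and 1.22 times BKA90DRAFT_5513 in F19 and at 1.40 and 1.40 times in WLH. BKA90DRAFT_91281 stood at 1.04 and 0.934 times BKA90DRAFT_84274 in F19 and at 1.11 and 1.03 times in WLH. No test is given for these ratios because they were chosen on their values. The function terms split each pair. BKA90DRAFT_5513, BKA90DRAFT_84274 and BKA90DRAFT_173279 share a longer set of process terms, with ADP, ATP and heme transport. BKA90DRAFT_62384 and BKA90DRAFT_91281 have mitochondrial ATP transport alone. Among the short models the split follows which end lies at the edge of the annotated scaffold. It is the upstream end for BKA90DRAFT_5513 and BKA90DRAFT_84274, and the downstream end for BKA90DRAFT_62384 and BKA90DRAFT_91281. Whether the members of a pair are parts of the same gene was not tested.

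**Figure D3:**
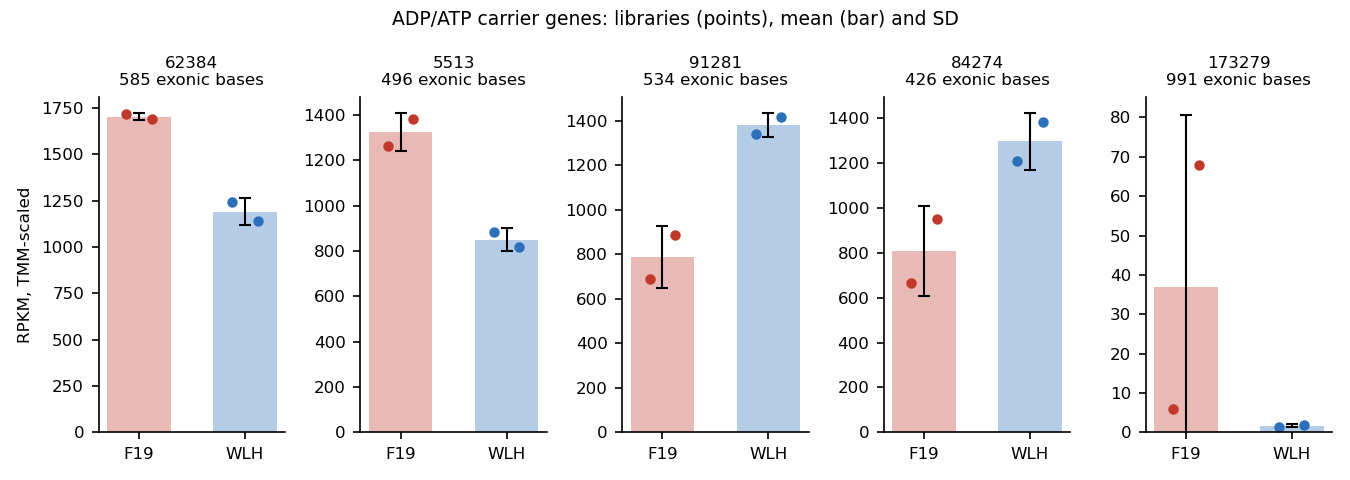
RPKM after TMM scaling of the 5 ADP/ATP carrier genes in F19 (left bar) and WLH (right bar), with a point per library, the mean as a bar and the SD as an error bar (n = 2 each), each panel on its own scale from 0. BKA90DRAFT_62384 and BKA90DRAFT_5513 stand higher in F19, BKA90DRAFT_91281 and BKA90DRAFT_84274 lower, and the SD of BKA90DRAFT_173279 in F19 exceeds its mean.

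BKA90DRAFT_173279 was a minor ADP/ATP carrier gene in these libraries, with 126 and 1355 counts in the F19 libraries and 30 and 32 in those of WLH. Its RPKM was 5.94 and 67.9 in F19 against 1.37 and 1.91 in WLH. The strains did not overlap, but F19 replicate 2 stood 11.4-fold above F19 replicate 1. The log2 fold change was 4.50 ± 1.09 (SE; edgeR adjusted p = 0.0129), and it was not called with the robust fit (adjusted p = 0.0860), without WLH replicate 1 (adjusted p = 0.108) or without WLH replicate 2 (adjusted p = 0.0949). Even in F19 replicate 2 it stood far below the 4 short models.

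Summed over the 5 ADP/ATP genes, levels in CPM, counts scaled to TMM-adjusted library sizes with no division by length, reached 2289.7 and 2621 in the F19 libraries and 2398 and 2419.8 in the WLH libraries, and the strains overlapped. That overlap was seen with TMM scaling, and other scaling factors were not tried for this sum. As shares of all gene counts, which use library totals alone, the same genes took 0.252% and 0.281% in F19 against 0.220% and 0.224% in WLH, higher in both F19 libraries. The other 34 carriers summed to 3774 and 4462 CPM in the F19 libraries against 6231 and 6029 in the WLH libraries, which did not overlap. ADP/ATP genes thus took 37.8% and 37.0% of all carrier counts in F19 libraries and 27.8% and 28.6% of those in WLH libraries. The 2 remaining carriers grouped under adenine nucleotides did not pass with TMM scaling. BKA90DRAFT_136881, with the ortholog number of the ATP-Mg/phosphate carrier, had 37.9 and 39.5 RPKM in F19 against 36.6 and 34.6 in WLH (log2 fold change 0.12 ± 0.12, SE; edgeR adjusted p = 0.421), and was called with library totals, at 0.35 (0.0369). For the peroxisomal type, BKA90DRAFT_134554, the log2 fold change was -0.08 ± 0.16 (SE; edgeR adjusted p = 0.704).

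Both phosphate carrier genes fell. BKA90DRAFT_134917 (ML755986.1, 276790 to 277968, plus strand) had 387 and 486 RPKM in F19 against 901 and 1018 in WLH. Each F19 library stood below each WLH library, and the log2 fold change was -1.14 ± 0.17 (SE; edgeR adjusted p = 0.00235). BKA90DRAFT_138187 (ML756007.1, 69964 to 71181, plus strand) had 602 and 691 RPKM in F19 against 925 and 928 in WLH. It fell less, with a log2 fold change of -0.52 ± 0.15 (SE; edgeR adjusted p = 0.0268). That second call was lost on leaving out WLH replicate 1 (adjusted p = 0.142) or WLH replicate 2 (0.153), with library totals (0.134) and in limma with a pseudocount of 1 (0.109). The RPKM of BKA90DRAFT_134917 was 0.642 and 0.704 times that of BKA90DRAFT_138187 in F19 and 0.974 and 1.10 times in WLH. That ratio restates the fold changes above and was also chosen after the values were seen. The terms of both genes also name copper transport, which some phosphate carriers of Saccharomyces cerevisiae perform.

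**Figure D4:**
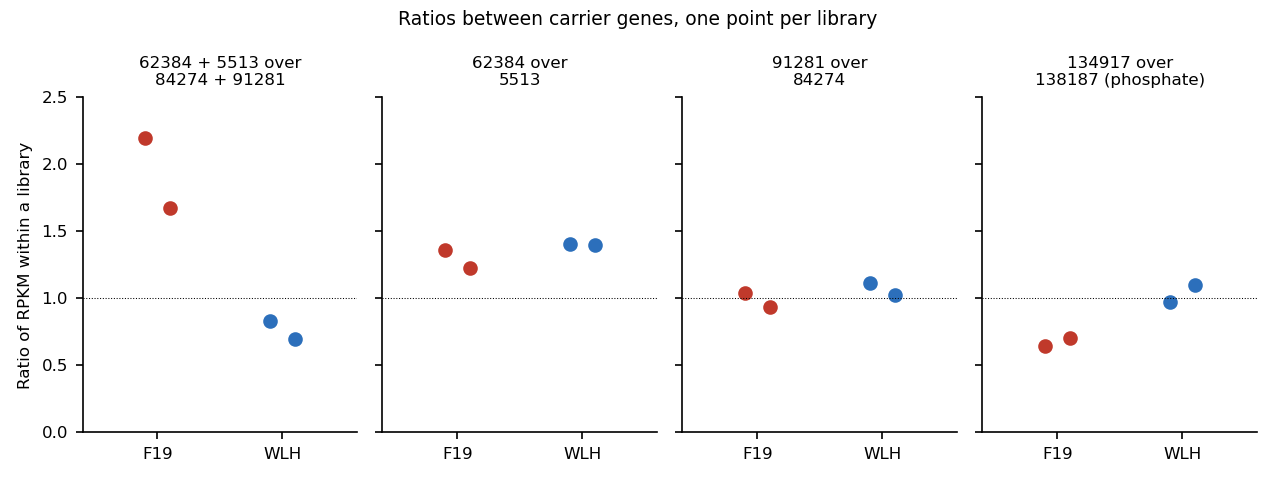
Ratios of RPKM between carrier genes within a library, with 1 point per library, F19 left and WLH right in each panel, and a dotted line at 1. The ratio of the first ADP/ATP pair to the second is 2.20 and 1.67 in F19 and 0.835 and 0.698 in WLH, the ratios within the pairs lie close together, and the phosphate carrier ratio is lower in F19.

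Of 6 carriers of dicarboxylates and tricarboxylates, 2 fell (33.3%), 0 rose and 4 did not pass, beside 25.5% falls and 25.9% rises of all genes. The groups by substrate are too small for their shares to be read as a trait of the group. BKA90DRAFT_139455 (ML756019.1, 393 to 1509, plus strand) is annotated as the succinate:fumarate antiporter, which in Saccharomyces cerevisiae takes up cytosolic succinate in return for fumarate and is needed for growth on acetate. It had 339 and 374 RPKM in F19 against 952 and 814 in WLH. With a log2 fold change of -1.31 ± 0.16 (SE; edgeR adjusted p = 0.00106) it was 2.47-fold lower in F19. The tricarboxylate carrier BKA90DRAFT_93584 (ML755982.1, 172535 to 173670, plus strand), annotated with mitochondrial citrate transport, had 37.4 and 69.8 RPKM in F19 against 113 and 106 in WLH. Both F19 libraries lay below WLH but differed 1.87-fold from each other. Its log2 fold change was -1.03 ± 0.27 (SE; edgeR adjusted p = 0.0162), and leaving out WLH replicate 1 or 2 ended the call (adjusted p = 0.0940 and 0.0820), as did limma with a pseudocount of 0.1 (0.0570). The file gives BKA90DRAFT_139455 and BKA90DRAFT_93584 the same ortholog number, that of the citrate carrier.

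A further carrier annotated with citrate and alpha-ketoglutarate transport, BKA90DRAFT_141034, had 114 and 163 RPKM in F19 against 193 and 169 in WLH. It did not pass (log2 fold change -0.38 ± 0.19, SE; edgeR adjusted p = 0.132), and was called without F19 replicate 2 (adjusted p = 0.0134). BKA90DRAFT_33690, annotated for oxaloacetate, sulfate and isopropylmalate, had 32.3 and 72.2 RPKM in F19 against 29.1 and 35.2 in WLH. Its F19 libraries differed 2.24-fold and replicate 1 lay within the range of WLH, so the strains overlapped (log2 fold change 0.70 ± 0.34, SE; edgeR adjusted p = 0.123). It was called without F19 replicate 1, at a log2 fold change of 1.16 (adjusted p = 0.00358). The oxodicarboxylate carrier BKA90DRAFT_140470 and the dicarboxylate carrier BKA90DRAFT_133102 overlapped between the strains, with log2 fold changes of -0.22 ± 0.17 and 0.07 ± 0.15 (SE; edgeR adjusted p = 0.298 and 0.719). The terms of BKA90DRAFT_140470 also name ATP:ADP antiporter activity, and it was placed here by its ortholog number.

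Among 5 carriers of amino acids and carnitine, 2 fell (40.0%, beside 25.5% of all genes) and 3 did not pass. BKA90DRAFT_137961 (ML756005.1, 98326 to 99435, minus strand) is annotated as the carnitine:acylcarnitine antiporter, which brings acyl groups into mitochondria. It had 48.1 and 62.4 RPKM in F19 against 105 and 81.5 in WLH, and did not overlap (log2 fold change -0.76 ± 0.18, SE; edgeR adjusted p = 0.0122), although the call was lost without WLH replicate 1 (adjusted p = 0.0950) and in limma with a pseudocount of 1 (0.0591). BKA90DRAFT_132366, the lowest carrier of all, had 4.82 and 4.88 RPKM in F19 against 8.23 and 9.33 in WLH (log2 fold change -0.86 ± 0.20, SE; edgeR adjusted p = 0.0112, and 0.0806 without WLH replicate 2). Its family number is shared by BKA90DRAFT_134556, which had 10.7 and 19.6 RPKM in F19 against 23.5 and 26.1 in WLH. That gene missed the threshold in edgeR (log2 fold change -0.71 ± 0.28, SE; adjusted p = 0.0658) and passed it in DESeq2 (adjusted p = 0.0344) and without F19 replicate 2 (0.00479). The fourth gene of that number, BKA90DRAFT_135078, is annotated for ornithine, an intermediate of arginine synthesis, and did not pass (log2 fold change 0.20 ± 0.18, SE; edgeR adjusted p = 0.368). Its terms also name glycine transport and heme biosynthesis. BKA90DRAFT_137810, with the ortholog number of the aspartate/glutamate carrier, had 116 and 132 RPKM in F19 and 135 and 131 in WLH and did not pass (edgeR adjusted p = 0.556).

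Of 8 carriers of nucleotides and cofactors, 1 fell (12.5%, beside 25.5% of all genes). BKA90DRAFT_154108 (ML756027.1, 139508 to 140902, plus strand), the S-adenosylmethionine carrier, supplies mitochondria with the methyl donor of their methylation reactions. It had 63.6 and 77.0 RPKM in F19 against 208 and 274 in WLH. At a log2 fold change of -1.78 ± 0.18 (SE; edgeR adjusted p = 0.000685), 3.43-fold lower in F19, it had the lowest log2 fold change of the 39 carriers. The thiamine pyrophosphate carrier BKA90DRAFT_135540, which delivers the cofactor of mitochondrial oxoacid dehydrogenases, had 11.9 and 11.9 RPKM in F19 against 7.58 and 9.37 in WLH. Its strains did not overlap, but it missed the threshold (log2 fold change 0.49 ± 0.19, SE; edgeR adjusted p = 0.0658) and passed it with library totals (adjusted p = 0.0177). The guanine nucleotide carrier BKA90DRAFT_142845 had 105 and 173 RPKM in F19 against 194 and 169 in WLH, and the strains overlapped. It did not pass (edgeR adjusted p = 0.197), and was called without F19 replicate 2 (adjusted p = 0.00859). The coenzyme A carrier BKA90DRAFT_143100 had a log2 fold change of 0.28 ± 0.15 (SE; edgeR adjusted p = 0.163), and was called with library totals (0.0252). The other 4, for pyrimidine nucleotides, NAD and pyruvate, adenylyl sulfates and of the folate family, had log2 fold changes from -0.15 for BKA90DRAFT_135147 to 0.00 for BKA90DRAFT_90398.

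Neither metal carrier passed. BKA90DRAFT_135927, with the ortholog number of mitoferrin, the carrier that brings iron in for heme and iron-sulfur cluster synthesis, had 91.7 and 129 RPKM in F19 against 142 and 163 in WLH. Its log2 fold change was -0.47 ± 0.18 (SE; edgeR adjusted p = 0.0663), and it was called without F19 replicate 2 (adjusted p = 0.0128). The magnesium carrier BKA90DRAFT_143575 had 23.0 and 32.0 RPKM in F19 against 19.8 and 20.4 in WLH. Its log2 fold change was 0.45 ± 0.19 (SE; edgeR adjusted p = 0.0786), and it was called without F19 replicate 1 (0.0163) and with library totals (0.0183).

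Among the 9 carriers with no substrate assigned, 3 rose (33.3%), 4 fell (44.4%) and 2 did not pass, beside 25.9% rises and 25.5% falls of all genes. BKA90DRAFT_143109 (ML756081.1, 40104 to 41383, plus strand) had 132 and 146 RPKM in F19 against 62.4 and 66.0 in WLH, a log2 fold change of 1.12 ± 0.12 (SE; edgeR adjusted p = 0.000865). BKA90DRAFT_132270 (ML755977.1, 900 to 2824, minus strand), the third longest carrier model, had 26.0 and 27.2 RPKM in F19 against 14.6 and 12.1 in WLH. In both genes the strains lay well apart beside a small spread within them, and BKA90DRAFT_132270 had a log2 fold change of 0.99 ± 0.15 (SE; edgeR adjusted p = 0.00230). BKA90DRAFT_16598 rose by a log2 fold change of 0.66 ± 0.15 (SE; edgeR adjusted p = 0.00914), with adjusted p of 0.0532 without WLH replicate 1 and 0.0787 without WLH replicate 2. Its RPKM was 77.3 and 97.4 in F19 against 57.0 and 53.5 in WLH.

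Of the falls in that group, BKA90DRAFT_135491 (ML755989.1, 84966 to 86414, minus strand) had 66.5 and 68.2 RPKM in F19 against 125 and 129 in WLH. It had the smallest standard error of the carriers called, with a log2 fold change of -0.92 ± 0.12 (SE; edgeR adjusted p = 0.00121). BKA90DRAFT_133768 (ML755981.1, 304570 to 305909, plus strand) had 71.5 and 74.0 RPKM in F19 against 143 and 108 in WLH (log2 fold change -0.79 ± 0.16, SE; edgeR adjusted p = 0.00623). BKA90DRAFT_132751 had 10.8 and 9.17 RPKM in F19 against 16.9 and 22.6 in WLH, and BKA90DRAFT_141341 had 19.8 and 23.6 RPKM in F19 against 32.9 and 36.0 in WLH. Neither overlapped between the strains (log2 fold changes -0.98 ± 0.21 and -0.66 ± 0.15, SE; edgeR adjusted p = 0.00780 and 0.0111), and leaving out WLH replicate 2 ended both calls (adjusted p = 0.0709 and 0.0854). For BKA90DRAFT_141341 limma with a pseudocount of 0.1 gave 0.0551. BKA90DRAFT_151419 and BKA90DRAFT_139111 did not pass (edgeR adjusted p = 0.0593 and 0.543), and BKA90DRAFT_151419 was called without WLH replicate 2 (0.0358).

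The carriers also differed in how far the libraries of a strain lay apart. The median ratio of the higher to the lower library was 1.15 in F19 and 1.13 in WLH, where all genes tested had 1.14 and 1.11. In F19, 7 carriers, 17.9%, were at least 0.5 apart on the log2 scale, as were 14.0% of all genes. In WLH it was 0 carriers and 8.73% of all genes. The F19 libraries lay 11.4-fold apart for BKA90DRAFT_173279, the most of any carrier, followed by BKA90DRAFT_33690 with 2.24-fold, BKA90DRAFT_93584 with 1.87-fold, BKA90DRAFT_134556 with 1.83-fold and BKA90DRAFT_142845 with 1.65-fold. In all 5 the higher library was F19 replicate 2. RPKM did not overlap between the strains for 28 carriers, 10 higher in F19 (background 39.9% of all genes) and 18 lower (background 39.7%), that is 71.8% of carriers beside 79.5% of all genes.

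The authors' deposited table of significant genes, which holds changes of at least 2-fold by their own test, lists 6 of the carriers, 2 higher and 4 lower in F19, beside 9.81% of all genes higher and 8.56% lower. In the authors' deposited table the fold F19 over WLH was 0.293 for BKA90DRAFT_154108, 0.406 for BKA90DRAFT_139455, 0.457 for BKA90DRAFT_134917, 0.491 for BKA90DRAFT_93584, 2.18 for BKA90DRAFT_143109 and 22.6 for BKA90DRAFT_173279.

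Other mitochondrial genes are given here by the same counts, to be read beside the 25.9% of all genes that rose and the 25.5% that fell. Of 74 genes with the oxidative phosphorylation pathway, which uses the ADP and phosphate that carriers bring in, 67 (90.5%) fell and 0 rose, with a median log2 fold change of -0.83. Of 25 genes of the citrate cycle pathway, 20 (80%) fell and 0 rose, with a median of -0.74, and 4 genes are in both lists. Of 20 genes of mitochondrial protein import, 11 (55.0%) fell and 0 rose, with a median of -0.46. Of 95 other genes described as mitochondrial, 38 (40.0%) fell and 7 (7.37%) rose, with a median of -0.28. With library totals, 16 of these 95 rose and 27 fell, 13 citrate cycle genes fell, and 1 import gene rose and 8 fell. Oxidative phosphorylation falls were then 51, with 0 rises, where 2419 of all genes rose and 1066 fell. No test of the difference between lists was made. Leaving out WLH replicate 1 or 2 moved the citrate cycle falls to 11 and 12, the import falls to 7 in both cases, and the falls of the other mitochondrial genes to 23 and 24, while falls of all genes numbered 986 and 860. The 7 rises among those other genes became 3 and 4 without F19 replicates 1 and 2, and 2 and 0 without WLH replicates 1 and 2, while rises of all genes numbered 1509 and 1455 without the F19 and 985 and 810 without the WLH libraries.

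Named by size of change, the iron-sulfur subunit of succinate dehydrogenase, BKA90DRAFT_137134, had 116 and 112 RPKM in F19 against 348 and 327 in WLH (log2 fold change -1.57 ± 0.13, SE; edgeR adjusted p = 0.000442). A complex I subunit, BKA90DRAFT_97548, fell by 1.53 on the log2 scale, and a malate dehydrogenase, BKA90DRAFT_139631, fell by 1.64. In the import list, BKA90DRAFT_137499, of the Tim10/DDP family of small chaperones, had 47.2 and 47.4 RPKM in F19 against 111 and 119 in WLH (log2 fold change -1.28 ± 0.14, SE; edgeR adjusted p = 0.000804). The import motor subunit PAM17, BKA90DRAFT_133074, fell by 0.92 on the log2 scale. Among other mitochondrial genes, cytochrome c peroxidase, BKA90DRAFT_135522, had a log2 fold change of -2.35 ± 0.17 (SE; edgeR adjusted p = 0.000306). A putative cytochrome c peroxidase, BKA90DRAFT_139315, fell by 1.93 on the log2 scale.

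**Figure D5:**
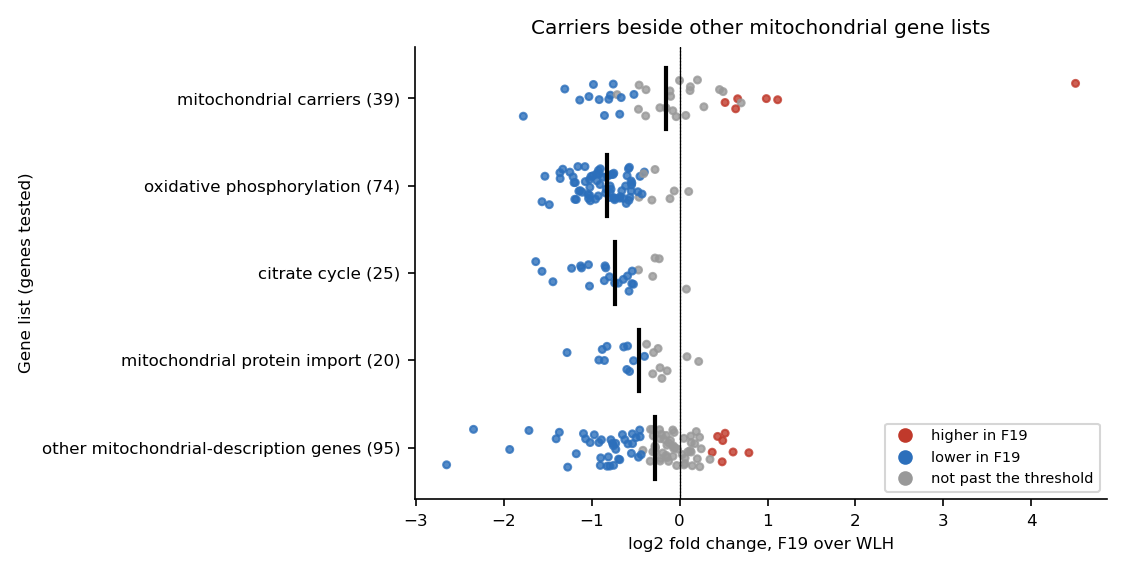
Log2 fold change, F19 over WLH, of each gene tested in the carrier list and in 4 other mitochondrial lists, with red points for genes higher in F19, blue for lower and grey for not past the threshold, a thick bar at the list median and a dotted line at the median of all genes, 0.01. The carriers spread to both sides with a median of -0.15, while the oxidative phosphorylation list has a median of -0.83 and 0 rises.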

How the data were processed

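The submitters' processing notes name HISAT2 2.2.1, HTSeq 0.6.1, cutadapt 1.9.1 and DESeq2. Parameters, strandedness of counting, annotation and build were not given in the sources used here. The authors deposited raw counts and FPKM per gene and library, with exonic lengths, and a table of significant genes with normalised mean signal, linear fold (ratio), log2 fold change with its SE, test score, p-value and adjusted p-value. In both, the header for WLH replicate 1 has the letter I where a digit belongs. Of the gene IDs, 0 matched the reference gene table, and no sequence was used. Descriptions, function terms and ortholog numbers come from the deposited annotation. What an ortholog number stands for was taken from general knowledge.

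The 3 construct rows were left out. The test on the deposited counts was that of edgeR 4.0.16 (R 4.3.3), over 6414 genes kept by filterByExpr, with TMM scaling (factors 1.10 and 1.07 for F19, 0.916 and 0.926 for WLH), strain as the only term, the two-sided quasi-likelihood test and Benjamini-Hochberg adjustment over all genes. The SE is the log2 fold change over the root of F. RPKM use the TMM-scaled totals. DESeq2 1.42.0 and limma 3.58.1 on log2(FPKM + 1) or log2(FPKM + 0.1), where mean FPKM was 1 or more, were alternatives, with other scalings, filters, a robust fit, a replicate block and the omission of each library in turn. The scripts were tested on simulated data.

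Members and lists were chosen with earlier results of these data known. Values are printed for carriers past the threshold with at least 1.5-fold change, all ADP/ATP carriers, the 5 highest and 3 lowest carriers by FPKM, and up to 2 genes per other list with an FPKM of at least 10. Values of the remaining carriers were printed after they were seen. With the meaning of ortholog numbers taken from general knowledge, substrates were assigned from description, function terms and ortholog number, in that order of detail. An exception was BKA90DRAFT_140470, whose terms name both ATP:ADP exchange and dicarboxylic acids, and which was grouped by its ortholog number. Without strand information, reads of overlapping genes cannot be told apart.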

Additional observations from a re-analysis of the deposited data

How the results depend on the processing

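Of the 19 carriers called, 13 kept their call and direction under all 10 alternatives that keep the 4 libraries, and 7 also when any library was left out. How many of all called genes kept their call was not counted, so these numbers are not read as a trait of the carriers. No called carrier changed direction in any alternative run. Library totals and the FPKM fits moved the median of all genes to 0.24 (totals), 0.23 and 0.24 (limma with pseudocounts 1 and 0.1), and the carrier median to 0.081, 0.072 and 0.075. With totals 10 carriers rose and 11 fell, with limma and a pseudocount of 0.1, 9 rose and 8 fell. In those 3 fits citrate cycle falls were 13 each, and oxidative phosphorylation falls were 51 with totals and 48 in both limma fits. Import falls were 7 and 6 in the limma fits, with 1 import rise with totals and 1 with a pseudocount of 1. Other mitochondrial genes had 16 rises with totals and, in the limma fits, 13 and 12 rises and 24 falls each. All genes had 2419, 2347 and 2276 rises and 1066, 1019 and 970 falls. The cause was not tested beyond the scaling itself.

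Uncalled carriers near 0 changed sign in those 3 fits: BKA90DRAFT_140470 to 0.013, 0.024 and 0.024, BKA90DRAFT_135147 to 0.081, 0.072 and 0.075, BKA90DRAFT_133432 to 0.13, 0.12 and 0.13, BKA90DRAFT_137810 to 0.13 each, BKA90DRAFT_134554 to 0.16, 0.17 and 0.17, BKA90DRAFT_142541 to 0.20, 0.19 and 0.20, and BKA90DRAFT_90398 to 0.23 each. BKA90DRAFT_90398 also stood at 0.023 with upper-quartile factors, 0.0066 with no filter and 0.0034 with the CPM filter. Leaving out a library gave ranges of -0.42 to 0.0032 for BKA90DRAFT_140470, -0.21 to 0.0027 for BKA90DRAFT_133432, -0.27 to 0.15 for BKA90DRAFT_134554, -0.14 to 0.061 for BKA90DRAFT_142541, -0.058 to 0.059 for BKA90DRAFT_90398 and -0.035 to 0.41 for BKA90DRAFT_135078.

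Leaving out a library gave 2 to 8 carrier rises, 7 to 17 falls and a median of -0.27 to -0.075. It gave 46 to 69 oxidative phosphorylation falls, 11 to 23 citrate cycle falls, 7 to 10 import falls, 0 to 4 rises and 23 to 36 falls of other mitochondrial genes, and 810 to 1509 rises and 860 to 1587 falls of all genes. The labels do not say that replicate numbers pair the samples, and the deviations of same-numbered libraries had a correlation of -0.09 across genes. With the replicate number as a block, 7 carriers rose and 16 fell, beside 1699 rises and 1670 falls of all genes. BKA90DRAFT_138187 was then not called (edgeR adjusted p = 0.0507). Without the 4 short ADP/ATP models, an alternative chosen after seeing the data, 4 of 35 carriers rose and 11 fell, with a median of -0.15. From descriptions alone, only 2 carriers had a substrate, against 30 with all fields.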
